A study of Homo sapiens with 5 samples.

Results

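The vesicular glutamate transporter genes SLC17A6, SLC17A7 and SLC17A8 and the glutamatergic lineage genes TBR1, EOMES, PPP1R17 and UNCX were followed through a differentiation of human pluripotent stem cells towards gonadotropin-releasing hormone (GnRH) neurons. These 7 genes were taken by symbol from the gene lists of all libraries, where each symbol occurred once, among 33538 genes listed at day 22 (D22), D24 and D26 and 36601 genes listed at the earlier days. SLC17A6, TBR1, PPP1R17, UNCX and EOMES were each detected in many late cells, with different courses. SLC17A7 was scarce and SLC17A8 was at or near 0 UMIs in every library. The name glutamate transporter therefore rests mainly on SLC17A6 in the late cells.

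The cells were wild-type WA09, an established human embryonic stem cell line, in all libraries used here. D0 cells were undifferentiated. D5_dSMADi and D10_dSMADi cells had been given dual SMAD inhibition (dSMADi), which blocks BMP and activin/TGF-β signalling and turns pluripotent cells into neural progenitors. D5_XAV939 and D10_XAV939 cells were given XAV939, an inhibitor of Wnt signalling, with dSMADi. D22, D24 and D26 cells came from the protocol without XAV939, in which dSMADi was followed by FGF8, a freezing and thawing step, and then by DAPT, an inhibitor of Notch signalling that lets progenitors become neurons. DAPT had been started shortly before D22. Each of the 8 conditions was 1 library of single cells or 1 tagged culture in a pooled run, so no difference has a replicate check, no p-value was computed, and the 95% intervals cover counting error only.

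Glutamatergic neurons load glutamate into synaptic vesicles through a vesicular glutamate transporter, of which SLC17A6 encodes VGLUT2, SLC17A7 VGLUT1 and SLC17A8 VGLUT3. EOMES (TBR2) and TBR1 are T-box transcription factors known from the excitatory lineage of the developing forebrain, where EOMES marks intermediate progenitors and newborn neurons and TBR1 marks postmitotic neurons. PPP1R17 encodes a regulatory protein of protein phosphatases that is found in cortical intermediate progenitors and in cerebellar Purkinje cells, and UNCX encodes a homeodomain transcription factor of developing brain and somites. DLX1, DLX2, DLX5 and DLX6 encode homeodomain factors of forebrain GABAergic neurons and stand here for the other arm of these cultures.

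On GRCh38 (GENCODE 44), all 7 genes were annotated as protein coding. SLC17A6 lay on chromosome 11 (22338381 to 22379503, plus strand), SLC17A7 on chromosome 19 (49429401 to 49442360, minus strand) and SLC17A8 on chromosome 12 (100357074 to 100422055, plus strand). TBR1 lay on chromosome 2 (161416297 to 161425870, plus strand), EOMES on chromosome 3 (27715949 to 27722711, minus strand), and PPP1R17 (31687215 to 31708455) and UNCX (1232872 to 1237326) on the plus strand of chromosome 7. The last 1539 bases of TBR1 overlapped SLC4A10, a bicarbonate transporter gene on the same strand, which was counted at 0.138 CPM at D22, 1.60 CPM at D24 and 4.47 CPM at D26, where CPM is the share of a library's or group's UMIs that fall on the gene, in counts per 1000000 UMIs. TBR1 also overlapped an annotated non-coding RNA on the same strand and another on the opposite strand, and SLC17A6 1 on the opposite strand. How reads of the overlapping bases were shared between these genes was not tested.

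The 250 bases before the start site (RefSeq, GRCh38.p14) were read for all 7 genes and searched on both strands for TAATTA, the core letters bound by many homeodomain factors, CAGATG, an E-box of NEUROD and NEUROG factors, and AGGTGTGA, a T-box core. TAATTA, which reads the same on both strands, occurred in 2 of the 7 windows, in each of them 2 times, and is shown in capitals for these genes, a T-box factor and a homeodomain factor. EOMES, the other T-box factor, held no match. In TBR1 (chr2:161416047-161416296, plus strand) the matches began 175 and 160 bases before the start, and in UNCX (chr7:1232622-1232871, plus strand) 132 and 29 bases before it.
TBR1: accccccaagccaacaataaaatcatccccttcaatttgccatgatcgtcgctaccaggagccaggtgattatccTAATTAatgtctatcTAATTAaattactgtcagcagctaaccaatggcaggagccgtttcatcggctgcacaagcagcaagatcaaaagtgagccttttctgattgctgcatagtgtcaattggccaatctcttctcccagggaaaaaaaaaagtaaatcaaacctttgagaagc
UNCX: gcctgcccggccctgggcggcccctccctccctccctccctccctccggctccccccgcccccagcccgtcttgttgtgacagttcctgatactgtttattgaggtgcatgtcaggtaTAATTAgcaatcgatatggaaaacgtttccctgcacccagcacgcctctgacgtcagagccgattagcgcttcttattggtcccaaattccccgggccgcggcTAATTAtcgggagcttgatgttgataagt
Among 35116 windows of the same length, 4.35% held TAATTA at least once and 0.353% at least 2 times. CAGATG and AGGTGTGA, held by 12.2% and 0.786% of these windows, were found in none of the 7. These matches describe letters and not binding.

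After filters on cells, 1008 to 2815 cells per condition were used in the pooled run, at medians of 24290.5 to 69455.5 UMIs per cell, and 9523, 9107 and 11056 cells at D22, D24 and D26, at medians of 12179, 7180 and 8485 UMIs. Since depth differed, shares of cells with a UMI were computed after each cell had been thinned at random to 5000 UMIs. This left out 122, 966 and 1238 shallower cells at D22, D24 and D26 and none in the pooled run. In the pooled run, every kept cell was led by the tag its label names. No more than 37 cell barcodes were shared by any pair of libraries. The pooled run and the late libraries were made with different gene lists and software versions, and their values stand side by side without a ratio between them. GNRH1 was at 5.85, 1133 and 3272 CPM at D22, D24 and D26. The 12 markers of other cell types, such as glia, blood and vessel, together gave 20.7, 13.5 and 12.1 CPM on these days, with SOX10, PTPRC and TNNT2 at 0 at D24 and SOX10 and CDH5 at 0 at D26.

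SLC17A6, the VGLUT2 gene, was nearly absent until D10 and was then found in 22.9% to 26.3% of thinned cells at D24 and D26. It gave 43 UMIs at D0, 0 at D5_dSMADi, 1 at D5_XAV939, 18 at D10_dSMADi and 42 at D10_XAV939. At D22, D24 and D26 it reached 10.3 CPM (9.77 to 10.9), 67.6 CPM (65.7 to 69.6) and 59.6 CPM (58.0 to 61.1). Of cells thinned to 5000 UMIs, 3.96%, 26.3% and 22.9% held a SLC17A6 UMI on these days. The level at D24 was 6.56-fold that at D22 (log2 ratio 2.71, 2.63 to 2.80), and D26 lay slightly below D24 (log2 ratio −0.18, −0.24 to −0.13).

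SLC17A7, the VGLUT1 gene, went the other way at a low level. Its 193 UMIs at D22 (1.48 CPM, 1.28 to 1.70) were followed by 44 at D24 (0.627 CPM, 0.456 to 0.842) and 1 at D26. Before D22 it gave 57 UMIs at D0, 61 at D5_dSMADi, 53 at D5_XAV939, 20 at D10_dSMADi and 32 at D10_XAV939. SLC17A8, the VGLUT3 gene, gave 5, 2, 3, 2 and 0 UMIs in the same libraries, 0 at D22 and D24 and 1 at D26. At D22 a count of 0 allows up to 0.0230 CPM, and at D24 up to 0.0428 CPM. Of the 3 transporters only SLC17A6 had more than 1 UMI among the 99456737 UMIs of D26.

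EOMES was present at D22 and D24 and all but gone at D26. It was at 46.3 CPM (45.1 to 47.4) at D22, 50.8 CPM (49.2 to 52.5) at D24 and 0.654 CPM (0.504 to 0.833) at D26. The share of thinned cells with a UMI went from 14.5% and 18.2% to 0.285%. The 65 UMIs at D26 came from 53 cells, and 33.8% of them from 10 cells. The log2 ratio of D26 over D24 was −6.28 (−6.66 to −5.93), a 77.8-fold lower level, and that of D24 over D22 was 0.14 (0.08 to 0.20), which became −0.05 when each cell had the same weight. In the pooled run EOMES gave 11, 3, 2, 10 and 62 UMIs at D0, D5_dSMADi, D5_XAV939, D10_dSMADi and D10_XAV939.

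TBR1, the other T-box factor, rose at D24 and stayed up at D26. Its level was 26.5 CPM (25.7 to 27.4) at D22, 259.5 CPM (255.7 to 263.3) at D24 and 266.1 CPM (262.9 to 269.3) at D26. A TBR1 UMI was found in 8.67%, 66.1% and 64.2% of thinned cells. The step from D22 to D24 was 9.78-fold (log2 ratio 3.29, 3.24 to 3.34), and the log2 ratio of D26 over D24 was 0.04 (0.01 to 0.06), which turned to −0.05 when mitochondrial and ribosomal protein genes were left out of the total. Earlier libraries held 3, 4, 11, 40 and 111 TBR1 UMIs in the order D0, D5_dSMADi, D5_XAV939, D10_dSMADi and D10_XAV939. Even in the last of these the level was 1.91 CPM (1.57 to 2.30).

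PPP1R17 showed the largest step of the members from D22 to D24. It was at 25.2 CPM (24.3 to 26.03), 299.6 CPM (295.5 to 303.6) and 396.2 CPM (392.3 to 400.2) at D22, D24 and D26, and in 5.86%, 53.2% and 66.4% of thinned cells. The ratio of D24 over D22 was 11.9-fold (log2 3.57, 3.52 to 3.63), and that of D26 over D24 was 1.32-fold (log2 0.40, 0.38 to 0.43). It was also the member with most UMIs at D0, where 183 UMIs in 143 of 1008 cells gave 2.41 CPM (2.07 to 2.79). D5 and D10 held 23 UMIs (D5_dSMADi), 11 (D5_XAV939), 12 (D10_dSMADi) and 15 (D10_XAV939), all under 0.3 CPM. PPP1R17 transcripts were therefore counted in undifferentiated cells, became scarce at D5 and D10, and were frequent at D24 and D26.

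UNCX peaked at D24. The levels were 20.1 CPM (19.3 to 20.8), 67.8 CPM (65.9 to 69.8) and 24.5 CPM (23.5 to 25.4) at D22, D24 and D26, with 7.78%, 24.6% and 10.3% of thinned cells positive. D24 was 3.38-fold above D22 (log2 ratio 1.76, 1.69 to 1.83), and D26 was 2.77-fold below D24 (log2 ratio −1.47, −1.54 to −1.40). UNCX was absent at D0 (0 UMIs), gave 4 UMIs in each D5 culture, and reached 67 UMIs (0.851 CPM) at D10_dSMADi and 252 UMIs (4.34 CPM, 3.82 to 4.91) at D10_XAV939. It was thus the member with most UMIs at D10.

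**Figure D1:**
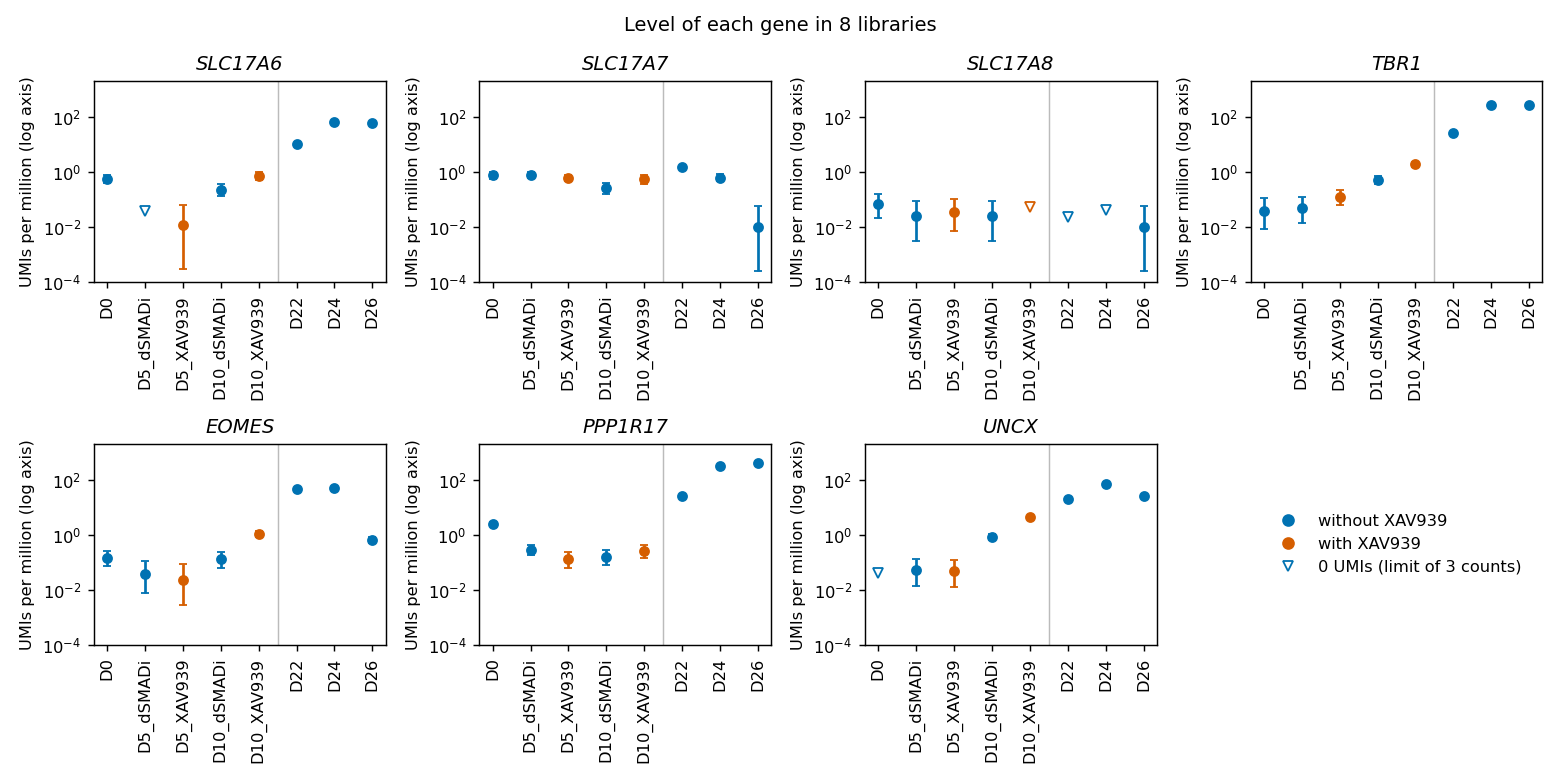
Level of each of the 7 genes in the 8 libraries, as CPM on a log axis; points are the summed UMIs of 1 library with the exact Poisson 95% interval, open triangles mark 0 UMIs at the limit of 3 counts, and the grey line divides the pooled run from the late libraries. EOMES falls to 0.654 at D26 while TBR1 and PPP1R17 stay at 266.1 and 396.2.

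From D22 to D24, 6 members passed the filter of at least 50 UMIs over both libraries, and 4 of them (SLC17A6, TBR1, PPP1R17, UNCX) were at least 2-fold higher with an interval that excluded equality, against 12.8% of 16188 genes tested. SLC17A7, which passed the filter through D22, was at least 2-fold lower (log2 ratio −1.24, −1.75 to −0.76), where 17.1% of the genes tested were. From D24 to D26, 5 members passed the filter, none was 2-fold higher (9.91% of 15619 genes were), and EOMES and UNCX were at least 2-fold lower (4.88% of genes). The median log2 ratio was −0.11 over all genes tested from D22 to D24 and 0.31 from D24 to D26, so the D26 over D24 ratios of SLC17A6 and TBR1 lay below the middle of all genes and that of PPP1R17 above it. The DLX genes took another course. DLX1 and DLX2 were lower at D24 than at D22 (log2 ratios −1.84, −1.95 to −1.72, and −1.56, −1.70 to −1.43) and DLX5 and DLX6 within 2-fold, and from D24 to D26 all 4 were higher, by log2 ratios of 2.08, 1.90, 1.58 and 2.34.

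Genes that act with the members moved in part with them. Of 8 synaptic vesicle genes, 6 were at least 2-fold higher at D24 than at D22 and none lower, and SYT1, the calcium sensor of release, went from 211.6 to 581.1 CPM. Of 12 measured genes of glutamate supply and uptake, 2 were higher (SLC1A1 and SLC1A2, which encode glutamate transporters of the cell membrane) and 2 lower (SLC1A3, another of these, and GLUL, glutamine synthetase, from 300.5 to 81.5 CPM). Among 13 measured genes of the cortical excitatory lineage, 9 were lower at D24 and none higher; they include NEUROD1, NEUROG2, PAX6 and FEZF2, a projection neuron factor that went from 357.8 to 11.5 CPM. The Cajal-Retzius list, genes of the early reelin-secreting neurons of the cortex, had 5 of 10 higher (RELN, LHX1, LHX5, CALB2 and NHLH2) and 2 lower (EBF2 and NDNF), with RELN at 16.8, 93.4 and 198.1 CPM at D22, D24 and D26. Of 8 measured diencephalic and midbrain glutamatergic factors, 3 were higher and 5 lower, and of 8 immature olfactory neuron genes 3 were higher and none lower. GABAergic genes rose on the same step, with GAD1, GAD2 and SLC32A1 at least 2-fold higher. The median log2 ratio of the lists was 2.02 for synaptic vesicle genes, −0.24 for glutamate supply, −1.84 for the cortical list, 0.83 for the Cajal-Retzius list, −1.70 for the diencephalic list and 0.94 for the olfactory list. Of the other SLC17 family, only SLC17A5, a lysosomal sialic acid carrier, was measured, and it was 2-fold higher (log2 ratio 1.20). Of 6 genes of other transmitters 1 was higher (DDC) and 1 lower (SLC6A9), and of 4 markers of other cell types 3 were lower and none higher. Among the genes counted as changed, SLC1A1, SLC1A3, NEUROD2, BCL11B, CALB2, NDNF, OTP, LMX1B, SIM1, FOXB1, SLC6A9, OLIG2 and COL1A1 had fewer than 50 UMIs on the lower day and passed the filter through the other, so the counts and medians of their lists say little.

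Between D24 and D26 the same lists were counted again. Of the synaptic vesicle genes only SYP was higher, at 49.7 and 156.0 CPM, and none was lower. In the glutamate supply list 3 of 12 were higher (SLC1A1, SLC1A2 and SLC1A6) and none lower. The cortical list had 4 of 12 higher (PAX6, NEUROD2, BCL11B and MEF2C) and 5 lower (NEUROG2, NEUROD1, EMX1, BHLHE22 and FEZF2), and the Cajal-Retzius list 3 of 10 higher (RELN, CALB2 and NDNF) and 3 lower (TP73, EBF2 and NHLH2). Among the diencephalic factors 3 of 6 were lower (OTP, BARHL2 and FEZF1), and in the olfactory list 1 of 8 was higher (RTP1) and 2 lower (LHX2 and GNG8). GAD1 and SLC32A1 of the GABAergic genes were higher. List medians were 0.50 for synaptic vesicle genes, 0.68 for glutamate supply, −0.49 for the cortical list and −0.32 for the Cajal-Retzius list. NEUROD2, BCL11B, EMX1, NDNF, TP73 and OTP had fewer than 50 UMIs on the lower day.

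The most abundant genes of each list show these courses in levels at D22, D24 and D26. In the glutamate supply list SLC38A1 and SLC38A2, which carry glutamine, were at 112.5, 118.8 and 185.4 CPM and at 32.0, 59.7 and 61.9 CPM, while GLUL ended at 84.6 CPM. VAMP2, a vesicle membrane protein of release, was at 116.6, 231.0 and 309.9 CPM. EMX2 and TLE4, forebrain transcription regulators of the cortical list, were at 298.9, 593.5 and 424.0 CPM and at 269.2, 400.2 and 435.8 CPM, unlike FEZF2, which ended at 2.72 CPM. LHX1 and LHX5, LIM homeodomain factors of the Cajal-Retzius list, were at 20.1, 204.5 and 154.1 CPM and at 35.9, 78.5 and 94.3 CPM. FEZF1 and TCF7L2 of the diencephalic list were at 116.7, 40.9 and 9.45 CPM and at 59.4, 1.88 and 1.88 CPM, and BARHL2 was at 2.02, 18.7 and 5.93 CPM. In the olfactory list TUBB, a tubulin gene, was at 1502, 2797 and 2930 CPM, and GAP43, a growth cone gene, at 145.4, 1624 and 2091 CPM. GAD2 and SLC32A1 of the GABAergic list were at 36.8 and 10.5 CPM at D26. Genes of other transmitters stayed scarce, with SLC18A3, DDC and TH at 0.613, 6.64 and 1.63 CPM at D26, as did OLIG1 and OLIG2 of the other cell types at 1.44 and 0.503 CPM. SLC17A9 and SLC17A4 did not exceed 0.0704 CPM on any of these days.

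Between D5 and D10 UNCX rose in both cultures, from 4 to 67 UMIs without XAV939 (log2 ratio 4.08, 2.66 to 6.0) and from 4 to 252 with it (6.56, 5.18 to 8.44). With XAV939, TBR1 (3.91, 3.02 to 4.96) and EOMES (5.53, 3.62 to 8.61) also rose, and SLC17A7 lay within 2-fold. These 3 of the 4 members that passed the filter did so through D10, so their count says little; 7.69% of 15901 genes were higher and 3.6% lower. Without XAV939, 2 members passed, UNCX higher and SLC17A7 lower (log2 ratio −1.59, −2.40 to −0.84), each through the day on which it was higher, so this count says as little. Here 10.2% of 16269 genes were higher and 2.86% lower. Under the filter, and also without XAV939, TBR1 went from 4 to 40 UMIs, SLC17A6 from 0 to 18 and EOMES from 3 to 10. PPP1R17 went from 23 to 12 UMIs.

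At D10, UMIs of the members were more frequent in the culture with XAV939. UNCX was 5.10-fold higher than at D10_dSMADi (log2 ratio 2.35, 1.96 to 2.76), TBR1 3.76-fold (1.91, 1.38 to 2.47) and EOMES 8.41-fold (3.07, 2.10 to 4.20). SLC17A6 had a log2 ratio of 1.66 (0.83 to 2.55) and SLC17A7 of 1.12 (0.27 to 2.00). These 5 members passed the filter of 50 UMIs and were at least 2-fold higher, but EOMES and TBR1 passed through the XAV939 culture alone, so their count says little; 2.7% of 16077 genes tested were higher and 4.52% lower. PPP1R17, with 15 against 12 UMIs, had a log2 ratio of 0.76 with an interval from −0.43 to 1.99. At D5 only SLC17A7 passed the filter and lay within 2-fold (log2 ratio −0.32, −0.88 to 0.23), where 1.79% of 15966 genes were higher and 1.64% lower; PPP1R17 gave 11 UMIs with XAV939 and 23 without (log2 ratio −1.19, −2.37 to −0.09).

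Most of these D10 UMIs came from few cells. A cluster of neuron-like cells, named by STMN2, DCX, ELAVL4 and other neuronal markers and built without the members, held 17 of 2416 cells at D10_dSMADi (0.704%, 0.410 to 1.12) and 61 of 2168 at D10_XAV939 (2.81%, 2.16 to 3.60). It contained every SLC17A6 UMI of D10, 94.0% and 95.6% of UNCX UMIs, 85% and 91.0% of TBR1 UMIs and 90% and 91.9% of EOMES UMIs, each pair without and with XAV939. The share was lower for SLC17A7, at 70% and 84.4% (14 of 20 and 27 of 32 UMIs), and for PPP1R17, at 41.7% and 53.3%. Within the neuron-like cells the members were not higher with XAV939 beyond counting error. There UNCX was at 179.2 CPM without and 162.5 CPM with XAV939 (log2 ratio −0.14, −0.55 to 0.28), TBR1 had a log2 ratio of −0.51 (−1.08 to 0.10), EOMES of 0.59 (−0.44 to 1.79) and SLC17A6 of −0.85 (−1.68 to 0.03). SLC17A7 was lower with XAV939 within them (−1.13, −2.11 to −0.08). The 17 cells of the first culture set the precision of these ratios. UNCX was found in 15 of the 17 and 51 of the 61 cells, TBR1 in 5 and 28, and EOMES in 4 and 22. SLC17A7 was found in 9 and 19 of these cells, more than the 5 and 13 with SLC17A6. All 5 TBR1 cells without XAV939 and 27 of 28 with it also held UNCX, and a DLX UMI was found in 3 of 5 and 1 of 28 of them. Of the 61 cells 6 were marked as likely doublets, and of the 17 none.

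At D22 to D26 cells were grouped into classes named after the study's own terms, from markers that include neither the members nor the DLX genes, with clusters built without these genes. The classes were proliferating neural progenitors (PNP-like), non-proliferating neural progenitors (NNP-like), GnRH and GABA neurons (GnRH-GABA-like), glutamatergic neurons (Glut-like) and cells with IRX genes (IRX-like). At D22 67.2% of cells were NNP-like, 13.5% PNP-like, 6.69% IRX-like and 1.17% Glut-like, with 11.05% of cells in clusters without a name. The D22 shares depended on the cluster resolution (0.5 here). At resolutions of 0.25 and 1.0, tried after seeing the data, 7.85% and 7.39% of D22 cells were Glut-like, 67.2% and 44.8% NNP-like and 17.8% and 21.6% PNP-like. At D24 and D26 the Glut-like class held 85.03% and 80.1% of cells and the GnRH-GABA-like class 5.89% and 15.9%. Cluster shares between days follow the same genes that define the clusters and are given as a description. The names and markers came from the study's own clusters of the same cells. There the paper lists TBR1, PPP1R17 and SLC17A6 among Glut markers and UNCX among those of its IRX cluster. It lists DLX1, DLX2 and DLX5 among markers of its GnRH cluster. Levels and shares of the members and DLX genes by class are therefore no independent support for the names.

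In Glut-like cells the levels of TBR1, SLC17A6 and PPP1R17 stayed within 2-fold between days, and those of EOMES and UNCX did not. TBR1 in Glut-like cells was at 283.3 CPM (252.3 to 317.1) in the 111 cells of D22, 296.3 CPM at D24 and 327.2 CPM at D26. SLC17A6 was at 98.5, 73.8 and 69.4 CPM and PPP1R17 at 530.0, 348.0 and 487.0 CPM. EOMES was at 61.0, 56.8 and 0.777 CPM, and UNCX at 85.4, 70.1 and 26.5 CPM. At resolutions of 0.25 and 1.0 the larger Glut-like class of D22 gave 136.2 and 139.2 CPM for EOMES, 128.9 and 130.4 CPM for UNCX and 292.3 and 310.1 CPM for PPP1R17.

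The Glut-like cells of D24 and D26 lay in different clusters, so the values of the class set these clusters side by side. Cluster 1, led by FSTL5, RSPO3 and NTS, held 7520 cells of D24 and 51 of D26, and cluster 0, led by GABRA2, CDH12 and TNIP3, 161 of D24 and 8539 of D26. EOMES in cluster 1 was at 58.1 CPM (56.1 to 60.1) at D24 and 31.3 CPM (15.6 to 56.1, from 11 UMIs) at D26, and in cluster 0 at 0.866 CPM (1 UMI) and 0.581 CPM (0.422 to 0.780). UNCX was at 70.9 CPM (68.7 to 73.1) and 96.9 CPM (67.1 to 135.3) in cluster 1 and at 33.8 CPM (24.03 to 46.2) and 25.9 CPM (24.8 to 27.1) in cluster 0. Within each cluster the values of both genes lay within 2-fold of each other on these days, with few cells on 1 of the days. Cells were grouped by likeness of other genes, and RSPO3, which is among the genes that lead cluster 1, ran with EOMES (r = 0.91). Likeness within a cluster may therefore come from the grouping itself. Each cluster was almost all of 1 day, so cluster and day cannot be told apart here.

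The IRX-like class shared SLC17A6 and UNCX with the Glut-like class but less of the others. SLC17A6 in IRX-like cells was at 57.3 CPM (50.5 to 64.8) at D24 and 111.9 CPM (99.9 to 124.9) at D26, and Glut-like cells set against them gave log2 ratios of 0.37 (0.18 to 0.55) and −0.69 (−0.85 to −0.52). UNCX was higher in IRX-like cells on both days, at 106.2 and 93.9 CPM (log2 ratios −0.60, −0.74 to −0.46, and −1.82, −2.01 to −1.63). TBR1 was lower there, at 31.9 and 47.3 CPM, as was PPP1R17 at 62.7 and 80.1 CPM. The class joins a pair of clusters in a mix that differed between the days. Cluster 7, led by SFRP2, PTX3 and WLS, held 97 of 548 IRX-like cells at D24 and 15 of 271 at D26, and cluster 8, led by CRABP1, ROBO3 and SST, held the others. In cluster 8, SLC17A6 was at 73.3 CPM (64.5 to 82.9) at D24 and 124.8 CPM (111.4 to 139.4) at D26, and UNCX at 137.2 CPM (125.0 to 150.2) and 105.1 CPM (92.8 to 118.5). In the 97 cells of cluster 7 at D24, 3 SLC17A6 UMIs and 1 UNCX UMI were counted.

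The GnRH-GABA-like class was low in every member, and its values depended on likely doublets. With all cells, the log2 ratio of Glut-like over GnRH-GABA-like cells at D24 and D26 together was 2.73 (2.55 to 2.93) for SLC17A6, 2.67 (2.58 to 2.76) for TBR1, 4.32 (3.79 to 4.91) for EOMES, 2.57 (2.50 to 2.64) for PPP1R17 and 2.90 (2.66 to 3.16) for UNCX. A doublet score marked 46 of 536 GnRH-GABA-like cells (8.58%) at D24 and 245 of 1759 (13.9%) at D26, against 5.35% and 5.74% of Glut-like cells. Without the marked cells the ratios were 5.25, 4.88, 6.42, 4.40 and 4.65. The members and DLX genes were not left out of the score, so it may itself raise these ratios, which was not tested. At D26 the level in GnRH-GABA-like cells went from 10.7 to 1.73 CPM for SLC17A6, from 54.5 to 11.5 CPM for TBR1 and from 82.8 to 22.5 CPM for PPP1R17 when these cells were left out. Among the remaining cells at 5000 UMIs, TBR1 was found in 3.42% at D24 and 3.54% at D26 and PPP1R17 in 4.10% and 6.41%, compared with 74.2% and 77.1%, and 60.2% and 78.8%, of Glut-like cells.

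**Figure D2:**
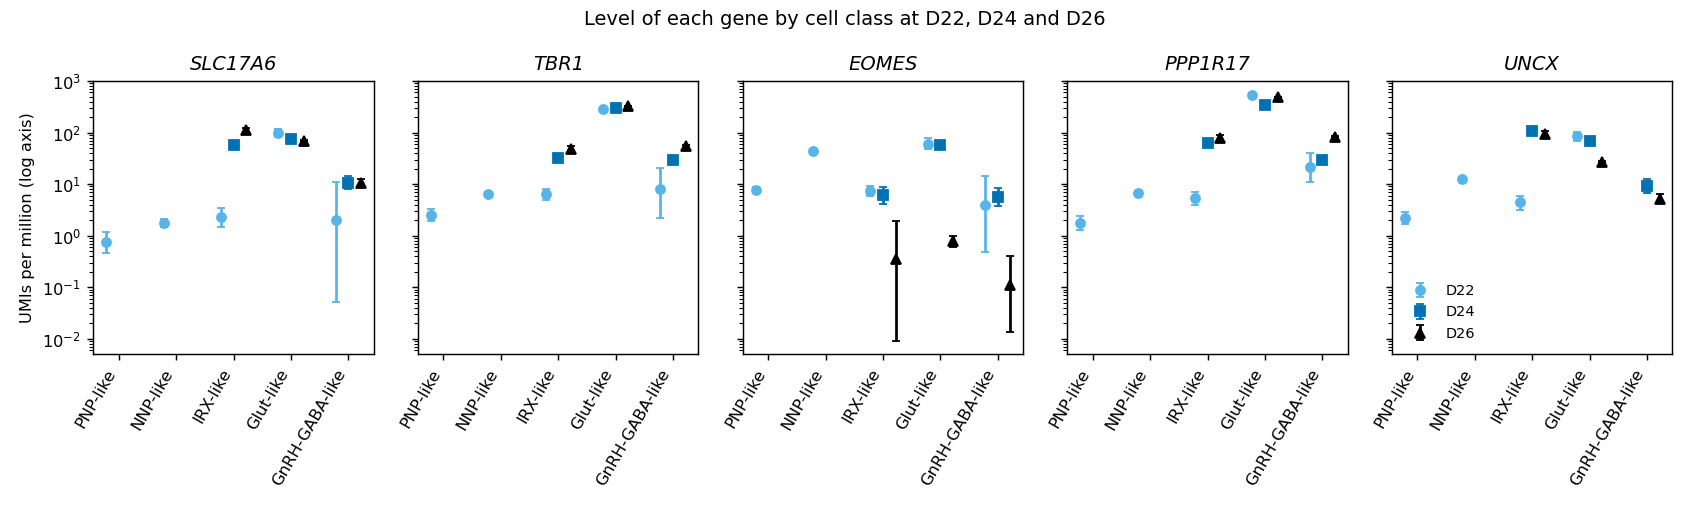
Level of 5 members in each cell class at D22 (circles), D24 (squares) and D26 (triangles), as CPM on a log axis with exact Poisson 95% intervals; marked doublets are included, classes with 0 UMIs have no point, and the 2 to 15 PNP-like and NNP-like cells of D24 and D26 are left out. EOMES in Glut-like cells falls from 56.8 at D24 to 0.777 at D26, and UNCX at D24 and D26 is highest in IRX-like cells.

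At D22 many member UMIs lay in cells that no class name covered at the resolution used. An unnamed cluster of 850 D22 cells, led by RSPO3, EOMES, KLHL35 and CRH, had TBR1 at 235.3 CPM (225.9 to 245.1), EOMES at 205.4 CPM (196.5 to 214.5) and PPP1R17 at 205.9 CPM (197.0 to 215.1). UNCX was at 130.4 CPM and SLC17A6 at 104.1 CPM in it. These cells held 2317 of 3462 TBR1 UMIs, 2027 of 3281 PPP1R17 UMIs and 1025 of 1345 SLC17A6 UMIs of D22, and 2022 of 6035 EOMES UMIs and 1284 of 2616 UNCX UMIs. Of its 846 cells at 5000 UMIs, 65.7% held TBR1, 53.4% EOMES, 39.1% UNCX, 35.9% PPP1R17 and 34.5% SLC17A6. The name of this cluster turned on the limits for naming: its Glut-like score was 0.437, under the limit of 0.5 that was set after seeing the data, and at a resolution of 1.0 a cluster led by RSPO3, CNTN2 and TRH was Glut-like and held 616 D22 cells. At a resolution of 0.25 the Glut-like cluster with most D22 cells, led by FSTL5 and RSPO3, held 681 of them and 7583 of D24. A small NNP-like cluster of 71 D22 cells also held all 5 members, with EOMES at 119.2 CPM and TBR1 at 116.7 CPM; its cells had a median of 23026 UMIs, above the 12179 of the library, and the part of doublets in it was not tested. In the NNP-like class as a whole EOMES was at 43.1 CPM, and TBR1, PPP1R17 and SLC17A6 were at 6.45, 6.79 and 1.77 CPM.

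Detection of the members within D22 was set against STMN2, a neuronal cytoskeleton gene that rises as progenitors become neurons. The groups are cells of 1 day, and an order in time was not tested. EOMES, the member with most UMIs at D22, was also the member found most often in cells with fewer than 20 STMN2 UMIs. It was found in 2.58% of cells without STMN2, 7.09% of cells with 1 to 4 STMN2 UMIs, 28.8% with 5 to 19 and 45.5% with 20 or more. TBR1 was found in 0.326%, 0.697%, 6.61% and 59.5% of the same cells. SLC17A6 was at or below 0.0775% in the first groups, then at 1.71% and 30.6%. PPP1R17 went from 1.03% to 1.94%, 3.77% and 35.3%, and UNCX from 1.28% to 3.29%, 10.7% and 34.9%. The DLX genes ran the other way, from 13.5% of cells without STMN2 to 11.4%, 7.29% and 4.12%. D22 cells with 5 to 19 STMN2 UMIs therefore held EOMES more often than TBR1, and those with 20 or more the reverse. At D24 this differed: in the 108 cells with 5 to 19 STMN2 UMIs, EOMES was found in 10.2%, TBR1 in 20.4% and PPP1R17 in 24.1%.

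**Figure D3:**
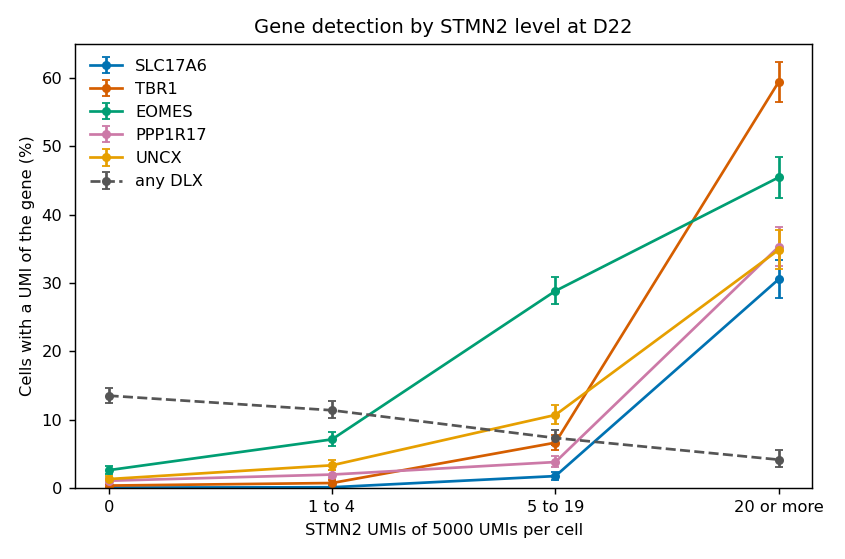
Share of D22 cells with a UMI of each gene (vertical axis, percent, with exact 95% intervals) in 4 groups of cells by STMN2 UMIs of 5000 per cell (horizontal axis; 3684, 2581, 2043 and 1093 cells). EOMES reaches 28.8% in the group with 5 to 19 STMN2 UMIs, where TBR1 is at 6.61%, and TBR1 is highest in the last group at 59.5%.

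The shares of cells with combinations of EOMES, TBR1 and PPP1R17 also differed between days. At D22, 9.46% of thinned cells held EOMES without TBR1 and PPP1R17, with a median of 8 STMN2 UMIs, and 3.37% held EOMES with TBR1, with a median of 29. TBR1 with PPP1R17 and without EOMES was found in 2.09% of cells, with a median of 46 STMN2 UMIs, and all 3 genes in 0.989%. At D24, TBR1 with PPP1R17 made up 33.2% of cells, all 3 genes 6.28% and EOMES without the others 2.87%. EOMES with TBR1 alone rose to 6.92% at D24, and EOMES with PPP1R17 alone went from 0.691% at D22 to 2.17%. At D26, 50.3% of cells held TBR1 with PPP1R17, and the 4 combinations with EOMES together were 28 of 9818 cells.

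**Figure D4:**
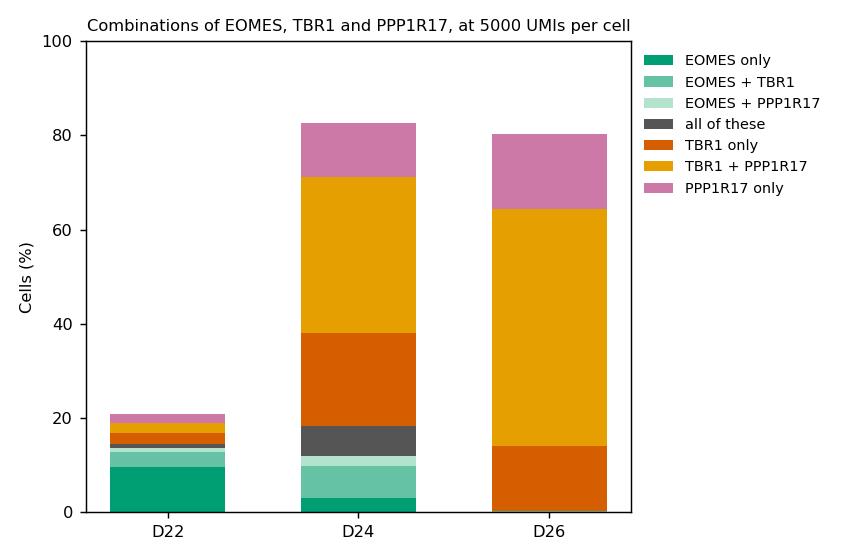
Share of cells (vertical axis, percent of cells at 5000 UMIs) with each combination of EOMES, TBR1 and PPP1R17 at D22, D24 and D26; the space above each bar is cells with none of them. Combinations with EOMES shrink to a line at D26, where TBR1 with PPP1R17 is 50.3%.

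Cells with 1 member held the others more often than cells without it at D22. TBR1 was detected in 66.1% (61.1 to 70.9) of SLC17A6-positive cells and 6.30% (5.81 to 6.82) of SLC17A6-negative cells. EOMES was found in 50.3% of TBR1-positive and 11.1% of TBR1-negative cells, PPP1R17 in 35.5% and 3.05%, and UNCX in 35.5% and 5.15%. Of the 69 cells with a SLC17A7 UMI, 33 held EOMES (47.8%, 35.6 to 60.2, against 14.3% of cells without SLC17A7) and 3 held SLC17A6 (4.35%, against 3.95%). These shares cover all classes of D22, where most cells were progenitors that held no member.

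Within a class the pattern was weaker, and EOMES and PPP1R17 parted. In Glut-like cells of D24, PPP1R17 was found in 47.7% (45.1 to 50.4) of EOMES-positive and 63.6% (62.3 to 64.9) of EOMES-negative cells. In the unnamed RSPO3 cluster of D22 the shares were 25.4% (21.5 to 29.7) and 48.0% (42.9 to 53.0). UNCX and PPP1R17 also parted in Glut-like cells: PPP1R17 was found in 51.2% of UNCX-positive and 63.6% of UNCX-negative cells at D24, and in 67.0% and 80.8% at D26. UNCX went with EOMES at D24, in 31.7% of EOMES-positive and 24.1% of EOMES-negative Glut-like cells. TBR1 was spread evenly over SLC17A6-positive and SLC17A6-negative Glut-like cells, at 75.8% and 73.5% at D24 and 78.3% and 76.9% at D26. Median UMIs per cell of EOMES-positive and EOMES-negative cells were 7746 and 7380 at D24, and the median mitochondrial share was 4.15% and 3.99%.

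Cells with a member seldom held a DLX gene. At D22, a UMI of DLX1, DLX2, DLX5 or DLX6 was found in 1.34% of SLC17A6-positive and 10.8% of SLC17A6-negative cells, in 2.33% and 11.2% by TBR1, 2.27% and 11.9% by EOMES, 4.72% and 10.8% by PPP1R17 and 1.64% and 11.2% by UNCX. At D24 the shares in member-positive cells lay between 1.05% for UNCX and 1.40% for SLC17A6, and in negative cells between 7.06% by EOMES and 15.5% by TBR1. At D26 they were 3.73% and 20.4% by SLC17A6, 4.41% and 38.5% by TBR1, 4.86% and 39.8% by PPP1R17 and 3.87% and 18.0% by UNCX. EOMES was left with 28 positive cells at D26, of which 1 held a DLX UMI. As a background level, a DLX UMI was found in 44 of 6934 Glut-like cells at D24 and 129 of 7847 at D26, at median depths of 7084 and 8333 UMIs, and 87.2% and 94.0% of GnRH-GABA-like cells held one at median depths of 7985 and 9288 UMIs. Since 1 random thinning gave these shares, it was repeated 10 times, and the share with a DLX gene among TBR1-positive cells then ranged from 1.40% to 2.62% at D22, 0.939% to 1.33% at D24 and 3.72% to 4.26% at D26. The single draw used here lay outside this range for TBR1 at D26: its 4.41% was above every repeat, its 38.5% of TBR1-negative cells was below the 38.8% to 40.2% of the repeats, and its 278 cells with both were more than the 237 to 269 of the repeats.

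At D24 and D26 DLX detection differed between classes, and at D26 the difference by member within a class was small. Marked doublets were kept in these shares. In Glut-like cells of D26 a DLX gene was found in 1.67% (1.36 to 2.02) of TBR1-positive and 1.57% (1.05 to 2.26) of TBR1-negative cells. So few Glut-like cells held a DLX UMI that a lower share could hardly show. In GnRH-GABA-like cells of D26 the shares were 90.2% (85.1 to 94.0) and 94.6% (93.2 to 95.7) by TBR1 and 89.4% (84.9 to 93.0) and 94.9% (93.5 to 96.0) by PPP1R17. TBR1 was found in 12.3% of these cells with marked doublets and 3.54% without them, and PPP1R17 in 15.7% and 6.41%. Many of their member-positive cells were thus marked, and a separation without marked cells was not tested.

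Much of the remaining overlap at D24 and D26 lay in cells marked as likely doublets. The doublet score drew on variable genes, and the members and DLX genes were not left out of it. A cell with both could score higher for that reason, which was not tested. Of 278 cells with TBR1 and a DLX gene at D26, 138 (49.6%) were marked, against 7.18% of cells with TBR1 alone and 6.37% with a DLX gene alone, and their median depth was 12821 UMIs against 8661 and 9304. For PPP1R17 it was 146 of 317 (46.1%), for SLC17A6 44 of 84, and for UNCX 19 of 39. At D24, 25 of 61 cells with TBR1 and a DLX gene were marked (41.0%). At D22 the counts were small. Marked were 3 of 19 cells for TBR1 (15.8%, against 5.40% of cells with TBR1 alone) and 4 of 31 for EOMES (12.9% against 5.55%). For UNCX it was 2 of 12 (16.7% against 5.29%), for SLC17A6 1 of 5 (20% against 5.99%) and for PPP1R17 1 of 26 (3.85% against 5.52%). The part of doublets that the score missed was not tested.

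The separation from the DLX genes was present inside the progenitor class of D22 for EOMES, UNCX and TBR1. Among NNP-like cells of D22, a DLX UMI was found in 21 of 812 EOMES-positive cells (2.59%, 1.61 to 3.93) and 12.9% (12.01 to 13.8) of EOMES-negative cells. By UNCX the shares were 2.45% (1.07 to 4.78) and 12.1%, and by TBR1 4.96% (1.84 to 10.5) and 11.7%. PPP1R17-positive NNP-like cells differed from this: 10.9% (6.48 to 16.9) held a DLX gene against 11.6% (10.8 to 12.4) of PPP1R17-negative cells, a difference within counting error. SLC17A6 had only 32 positive NNP-like cells, none with a DLX gene, which allows a share of up to 10.9%.

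**Figure D5:**
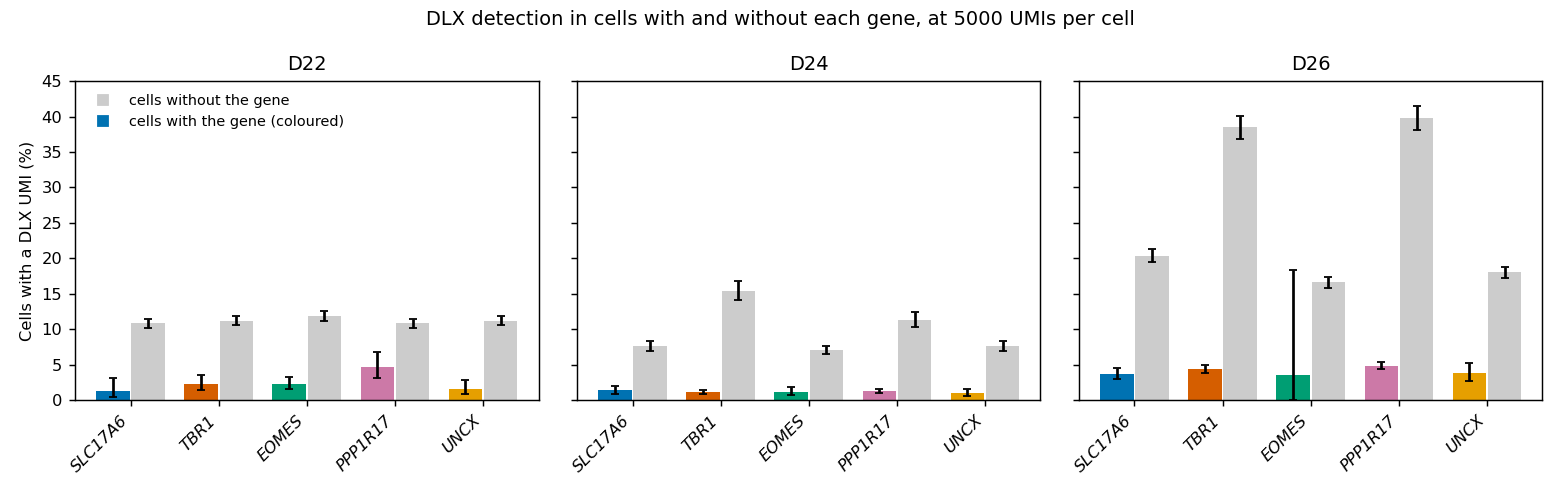
Share of cells with a UMI of DLX1, DLX2, DLX5 or DLX6 (vertical axis, percent) among cells with each member (coloured bars) and without it (grey bars) at D22, D24 and D26, at 5000 UMIs per cell with exact 95% intervals. Coloured bars are lower than grey ones throughout; at D26 the pair for TBR1 is 4.41% and 38.5%, where 10 repeat draws gave 3.72% to 4.26% and 38.8% to 40.2%, and the EOMES bar rests on 28 cells.

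The gene lists were also compared between the Glut-like and GnRH-GABA-like classes of D26, without marked doublets, where 6.99% of 13925 genes were at least 2-fold higher and 3.57% lower in Glut-like cells, with a median log2 ratio of 0.11. The log2 ratio was 5.31 for SLC17A6, 4.82 for TBR1, 4.43 for PPP1R17 and 4.24 for UNCX, and EOMES gave 56 against 0 UMIs. These are no independent values, since the class markers came from the study's own clusters of the same cells. SLC17A6 (4771 against 23 UMIs), UNCX (1869 against 19) and EOMES passed the filter through the Glut-like class alone, so no count of members is set against the share of all genes. The GABAergic genes GAD1 and SLC32A1 were lower, at 0.202 against 17.6 CPM and 0.245 against 63.7 CPM. Both passed the filter through the GnRH-GABA-like class alone (14 against 234 and 17 against 847 UMIs). The paper also names SLC32A1 as a marker of its GnRH cluster, so neither is taken as independent support. GAD2, at 1.13 against 222.9 CPM, is one of the markers that named the GnRH-GABA-like class and is no independent value. None of 10 genes of glutamate supply and uptake and none of 8 synaptic vesicle genes differed 2-fold in either direction. SLC38A1, a glutamine carrier, was at 188.1 and 167.3 CPM. Of the Cajal-Retzius list, RELN was at 221.5 against 76.5 CPM and CALB2 at 64.7 against 2.26 CPM. LHX1, at 182.5 against 7.0 CPM, is one of the markers that named the Glut-like class and is no independent value. LHX5 was at 113.1 against 4.44 CPM, and LHX5-AS1 is another of these markers, so LHX5 is not taken as independent. EBF3, NHLH2 and NDNF of this list were also higher. Of the cortical list NEUROG2, NEUROD1, EMX2 and FEZF2 were higher and BCL11B, TLE4 and MEF2C lower. EMX2 was at 509.2 against 29.8 CPM, and TLE4 at 339.4 against 950.1 CPM. Of the diencephalic factors BARHL2 and FEZF1 were higher, and of 7 olfactory genes LHX2, EMX2 and GNG8. CALB2, EBF3, NHLH2, NDNF, NEUROG2, NEUROD1, FEZF2, BARHL2 and FEZF1 passed the filter through the Glut-like class alone and BCL11B through the other, so no count or median is given for their lists. The median log2 ratio was 0.15 for glutamate supply and 0.11 for synaptic vesicle genes.

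Across 24 groups of at least 50 cells, made by crossing library and cluster at D22 to D26, the gene whose level ran most like TBR1 among 12440 genes was SAMD3 (Pearson's r = 0.97 of log2(CPM + 5)), a marker of the Glut-like class, followed by SCN9A, ARHGDIG, CDH18 and ANKS1B. EOMES ran with CABP7 (0.95), TPPP3, RSPO3, CYSTM1 and CPNE9. PPP1R17 ran with IFIT5 (0.92), KLHL4, SLIT1, MGAT4A and SH3GL2. SLC17A6 ran with RERE (0.93), ADCYAP1, ICK, FAM171B and FAM219A, and UNCX with TMEM163 (0.94), ADCYAP1, SLC17A6 (0.89), SGCB and CREG2. Among the members themselves, TBR1 and PPP1R17 had an r of 0.88, SLC17A6 and TBR1 of 0.86, EOMES and UNCX of 0.57, and EOMES and PPP1R17 of 0.08. The groups share libraries and depth, and these values are a description.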

How the data were processed

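Single-cell libraries were made with a 10x 3′ kit and the deposited values are UMI counts per gene and cell, made by the authors with Cell Ranger 6.1.2 (D0 to D10, 5 tagged conditions pooled in 1 run) and 3.1.0 (D22 to D26) against GRCh38. Gene positions were taken from GENCODE 44 and start-site sequences from RefSeq. No replicate exists, so no p-value was computed.

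Cells were filtered after the study's limits on UMIs, genes, complexity and mitochondrial share, which for D22 to D26 were at least 1500 UMIs, at least 1000 genes, complexity of 0.82 and 20% mitochondrial UMIs. The stated complexity limit for D0 (above 0.85) leaves 1 cell, and its reverse leaves 1008, which were used. Counts were summed per library or class and divided by all UMIs (CPM), with exact Poisson intervals, exact binomial intervals for ratios and Clopper-Pearson intervals for shares, all at 95%. Intervals cover counting error only and understate the error where a gene's UMIs sit in few cells. Ratios were called past 2-fold where the interval excluded equality, among genes with at least 50 UMIs. Cells were thinned to 5000 UMIs by 1 random draw. Leiden clustering (leidenalg 0.10.2, resolution 0.5 for D22 to D26) used neither members nor DLX genes. Clusters were named from the study's markers, with score limits set after seeing the data, as were the STMN2 groups. Doublets were marked by a simulated-neighbour score above 0.25 (4.19% to 7.14% of D22 to D26 cells) and kept unless stated. Unlike the clustering, this score did not leave out the members and DLX genes. Likeness is Pearson's r of log2(CPM + 5).

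The members, gene lists and comparisons were chosen with earlier results of these data known. Named genes were the members, the DLX genes, the 5 most alike genes per member, and from each list its counts and 3 most abundant genes. Other list genes were named after their values were seen, and some genes of these lists are not reported here. Python 3.11.15, NumPy 2.4.6, SciPy 1.17.1 and scikit-learn 1.9.0 were used. On simulated counts, 98.5% to 100% of 200 changed genes were recovered, by comparison. These counts held Poisson error only, with changes set larger than the 2-fold call. They say nothing about spread between cultures or about genes whose UMIs sit in few cells.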

Additional observations from a re-analysis of the deposited data

How the results depend on the processing

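With 1 library per condition nothing here measures the spread between cultures, and few UMIs were counted for SLC17A7, for SLC17A8 and, at D26, for EOMES. No paired analysis was possible because each condition is 1 library. Of 339 alternative values, 236 stayed within counting error, 101 moved and 2 changed sign, and the cause was not tested. At a cluster resolution of 0.25 or 1.0 the Glut-like over GnRH-GABA-like ratios of D24 and D26 together stayed within it, but the Glut-like share, compared after seeing the data, was 7.85% and 7.39% in place of 1.17% at D22 and 87.8% and 86.0% in place of 85.03% at D24. With no filter on cells UNCX at D10_XAV939 was at 3.74 CPM. With a minimum of 10 UMIs, 1 member (PPP1R17) was 2-fold lower at D5 with XAV939 instead of 0, where 2.43% of genes were, 3 instead of 2 were lower at D26 than at D24 (SLC17A7 added, 5.84% of genes), and from D5 to D10 3 instead of 1 were higher without XAV939 (SLC17A6 and TBR1 added, 11.3% of genes) and 4 instead of 3 with it (SLC17A6 added, 8.78% of genes). SLC17A6, SLC17A7 and TBR1 passed through the library in which they were higher, so these counts say little.

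With each cell weighted equally, the log2 ratio of EOMES for D24 over D22 changed sign to −0.0472, those of SLC17A6, TBR1, PPP1R17 and UNCX were 2.56, 3.15, 3.42 and 1.61, PPP1R17 for D26 over D24 was 0.36 and UNCX for D10_XAV939 over D10_dSMADi was 1.95. Levels were then 11.6, 29.4, 50.1, 28.8 and 22.2 CPM for SLC17A6, TBR1, EOMES, PPP1R17 and UNCX at D22, 48.4 and 308 CPM for EOMES and PPP1R17 at D24, and 1.30 and 5.001 CPM for UNCX at D10 without and with XAV939.

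With mitochondrial and ribosomal protein genes left out of the total, TBR1 for D26 over D24 changed sign to −0.0532, and SLC17A6, PPP1R17 and UNCX were −0.27, 0.31 and −1.56. For D24 over D22, TBR1, EOMES, PPP1R17 and UNCX were 3.22, 0.0627, 3.50 and 1.68. Levels at D22, D24 and D26 rose to 14.2, 88.3 and 73.0 CPM for SLC17A6, 36.5, 338.7 and 326.4 for TBR1, 34.5, 391.0 and 486.0 for PPP1R17, 27.5, 88.5 and 29.99 for UNCX, and 63.5 and 66.4 at D22 and D24 for EOMES. SLC17A7 was at 0.994 (D0), 1.13 and 0.890 (D5 without and with XAV939) and 2.03 (D22), PPP1R17 at 3.19 (D0), UNCX at 1.14 and 5.68 (D10), and TBR1 and EOMES at 2.50 and 1.40 (D10_XAV939).

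Co-detection was also set as cells with both genes over the number expected if they were independent. The members and DLX genes were not left out of the score that marked doublets. With a DLX gene this was, without marked doublets, 0.126 for SLC17A6, 0.157 for TBR1, 0.186 for PPP1R17 and 0.138 for UNCX at D26 (0.225, 0.266, 0.293 and 0.234 with them), and 0.126 and 0.144 for TBR1 and PPP1R17 at D24. The Glut-like over GnRH-GABA-like log2 ratios without marked doublets were 5.25, 4.88, 6.42, 4.40 and 4.65 for SLC17A6, TBR1, EOMES, PPP1R17 and UNCX. Thinned to 1500 UMIs, the values with a DLX gene were 0, 0.0319 and 0.0946 for SLC17A6 and 0.0978, 0.138 and 0.135 for TBR1 at D22, D24 and D26, 0.157 for PPP1R17 at D26, and 0.336 and 0.131 for UNCX at D22 and D26. Pairs of members then gave 3.79 and 1.15 for EOMES with TBR1 (D22, D24), 6.90, 1.19 and 1.21 for TBR1 with PPP1R17, and 9.24, 1.19 and 1.07 for TBR1 with SLC17A6. Unthinned, the values with a DLX gene were 0.339 for SLC17A6 (D26), 0.289 and 0.346 for TBR1 (D24, D26), 0.320 for EOMES (D22 and D24), 0.282 and 0.396 for PPP1R17 (D24, D26), and 0.287 and 0.372 for UNCX (D22, D26), with 3.03 and 1.15 for EOMES with TBR1 (D22, D24) and 4.59 for TBR1 with PPP1R17 (D22). With at least 2 UMIs, they were 0.124 and 0.229 for TBR1 (D24, D26), 0.247 for PPP1R17 (D26), 1.21 for EOMES with TBR1 (D24), 7.74, 1.23 and 1.25 for TBR1 with PPP1R17, and 8.55, 1.22 and 1.31 for TBR1 with SLC17A6.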
